A study of Saccharomyces cerevisiae with 2 samples.

Results

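The DNA replication machinery is taken here as 39 yeast genes, listed by name from the origin recognition complex to the enzymes that finish the new strands. The list was chosen with earlier results of these data known. All 39 were found among the 6592 named genes of the deposited ribosome profiling table. Ribosome profiling sequences the stretches of mRNA that ribosomes protect, so a gene's footprints follow both its mRNA level and its translation. The study has 2 libraries from Saccharomyces cerevisiae of the SK1 background, a strain that sporulates efficiently, both taken 4 hours after the shift to sporulation medium. One culture is labelled WT and the other gim3 deletion, which lacks GIM3, a subunit of the prefoldin complex that passes unfolded tubulin and actin to the CCT chaperonin. The labels name no allele other than the gim3 deletion and no treatment other than the medium, and every gim3 deletion value comes from 1 library of that strain. With 1 library per genotype there was no replicate error and no test between the genotypes, and each interval below is a 95% interval (exact unless named otherwise) that covers counting error only.

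Replication starts where the origin recognition complex (ORC) marks DNA. Cdc6 and ORC load the ring-shaped MCM helicase there in an inactive form, and the kinase Cdc7 with its activating partner Dbf4, together with cyclin-dependent kinase, then brings in Cdc45 and the GINS complex to make the active helicase. Polymerase alpha-primase lays down primers, the clamp loader RFC places the sliding clamp PCNA, polymerases epsilon and delta extend the leading and lagging strands, and RPA coats the single strands in between. In meiosis a single round of replication comes before recombination and the meiotic divisions, and several of these proteins serve again in recombination.

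The libraries held 40433177 wild-type and 27864644 gim3 deletion reads. Values are given in RPM, reads per 1000000 reads of the library, and 37 of the 39 genes had a mean of at least 10 RPM over the libraries and are called measured, as did 4916 genes in all. GIM3 itself had 34.9 RPM in wild type and 0.108 RPM, from 3 reads, in the gim3 deletion library, called the deletion below where values are paired. With a pseudocount of 1 RPM, the log2 ratio of the deletion over wild type was -0.20 for the median gene of the 4916, so ratios are also set against that gene. The cultures differed in the meiotic markers they carried. The transcription factor Ndt80 switches on middle meiotic genes for the divisions and spore formation. Of 16 such genes 15 were measured, and all 15 were at least 2-fold higher in the gim3 deletion library, against 6.35% of all measured genes. SPS1 and SMA2, at 5.79 and 5.05 RPM in wild type, reached the 10 RPM mean only through the gim3 deletion library, where they are high. The median log2 ratio of the 15 was 3.33, and the summed level of the list was 2641 RPM against 27337. Of 16 early meiotic genes, all measured, 0 were at least 2-fold higher (against 6.35% of all measured genes) and 0 at least 2-fold lower (against 8.50%). Their median was -0.10, with 7 below the median gene, and they ran from -0.87 for MEK1 to 0.59 for IME2. They summed to 21475 and 20289 RPM, of which IME2 alone had 4120 and 6196, so the near-equal sums do not mean level genes. Markers of other states were scarce, with 2 of 8 mitotic G1 and budding genes and 2 of 6 haploid and mating genes measured. They summed to 61.6 and 63.3 RPM and to 32.4 and 53.1 RPM in the wild-type and gim3 deletion libraries, with none at 0. The mitotic genes went both ways, with SWI5 at 6.73 and 20.2 RPM and CTS1 at 5.09 and 1.58 RPM. SWI5 also reached the 10 RPM mean only through the gim3 deletion library. The part of these markers in the ratios below was not tested.

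The replication genes as a group had slightly fewer footprints in the gim3 deletion library, and hardly any had more. They took 0.600% of wild-type footprints (Wilson interval 0.598 to 0.602) and 0.449% of gim3 deletion footprints (0.446 to 0.451). The ratio was below 1 for 37 of the 39 genes, and its interval lay wholly below 1 for 33 and wholly above 1 for 2. At this depth counting error is small for most genes. A binomial test on the reads, which also covers counting error only, called 2855 of all 4916 measured genes lower and 1478 higher. Of the 37 measured replication genes it called 32 lower and 2 higher. Among the 37 measured genes the median log2 ratio was -0.41, which is 0.21 below the median gene. In cultures measured in bulk, fewer cells using a gene and fewer footprints per cell cannot be told apart. The middle 50% ran from -0.73 to -0.23 among the 37 genes, against -0.53 to 0.19 for the 4916 genes.

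Few of these differences were large. On the log2 scale with the pseudocount, at least 2-fold lower were 3 of the 37 genes (8.11%), near the 8.50% of all measured genes, and 0 were at least 2-fold higher, against 6.35%. At 1.5-fold, 13 were lower (35.1%, against 22.6% of all genes) and 0 higher (against 12.0%). Below the median gene lay 28 of the 37 (75.7%, against 50% by definition), and below a log2 ratio of 0 lay 35 (94.6%, against 64.5%). Most values were thus modest and on the lower side. Of the 9 genes above the median gene, CDC7 and ORC6 lay above 0, and the other 7 (ORC1, ORC4, MCM5, PSF2, PSF3, POL12 and DBF4) lay below 0 and turn to higher once ratios are centred on the median gene. PSF2 does so by only 0.001.

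**Figure D1:**
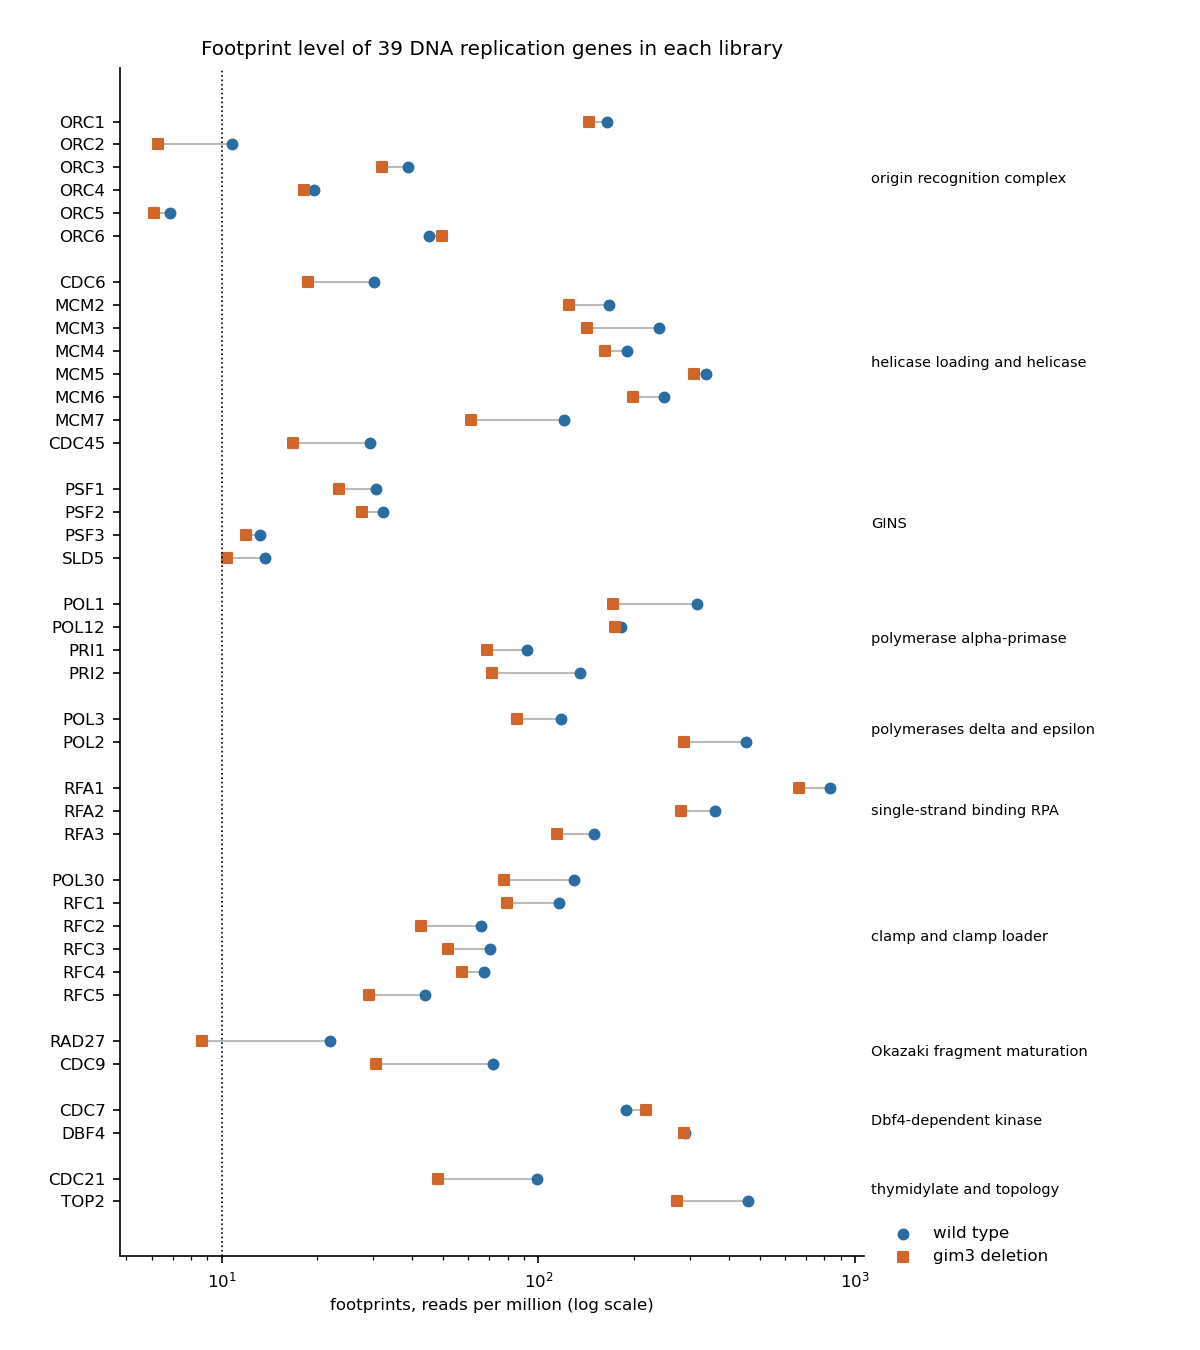
Footprint level in RPM (log axis) of the 39 genes in the wild-type library (circles) and the gim3 deletion library (squares), grouped by role, with a dotted line at 10 RPM. Most squares lie to the left of their circle, RAD27 and CDC9 by the most, while CDC7 and ORC6 lie to the right.

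ORC, the 6-subunit complex that binds origins and helps to load the helicase, differed little between the libraries apart from ORC2. Of its 4 measured subunits, 0 passed 2-fold and 1 lay below the median gene. ORC1, the largest subunit and an ATPase, had 164 RPM in wild type against 144 in the deletion, 1.14-fold lower (1.10 to 1.19). ORC3 was at 38.7 and 32.0 RPM, 1.21-fold lower (1.11 to 1.31). ORC4, at 19.6 and 18.2 RPM, had a ratio of 0.930 whose interval holds 1 (0.830 to 1.04). ORC6, the subunit least like the others and one that contacts the helicase loader Cdt1, was one of only 2 replication genes with a ratio above 1. It was at 45.0 and 49.6 RPM, 1.10-fold higher (1.03 to 1.18). ORC2 and ORC5 fell below the 10 RPM filter. ORC2 had 434 wild-type and 175 gim3 deletion reads, or 10.7 and 6.28 RPM, and was 1.71-fold lower (1.43 to 2.05), the lowest ratio in ORC. ORC5 had 277 and 170 reads, or 6.85 and 6.10 RPM, with a ratio of 0.891 (0.731 to 1.08).

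The helicase and its loading factors were lower, with subunits of the ring spread over a wide range of ratios. All 8 genes were measured, 7 lay below the median gene, 0 passed 2-fold, and their median was 0.34 below the median gene on the log2 scale. CDC6, the loading ATPase, had 30.2 RPM in wild type against 18.7 in the deletion, 1.62-fold lower (1.46 to 1.79). MCM7 stood lowest of the ring at 121 and 61.4 RPM, 1.96-fold lower (1.86 to 2.08). MCM3 followed at 240 and 143 RPM, 1.68-fold lower (1.62 to 1.74). The other 4 ring subunits were closer to 1. MCM2, whose N-terminal tail is a target of Cdc7, was at 167 and 125 RPM, 1.34-fold lower (1.29 to 1.40). MCM6 was at 249 and 198 RPM, 1.26-fold lower (1.22 to 1.30), and MCM4, another Cdc7 target, at 191 and 162 RPM, 1.18-fold lower (1.13 to 1.22). MCM5 had the most footprints of the ring, 337 and 310 RPM, and the smallest difference, 1.09-fold lower (1.06 to 1.12). The counting intervals of MCM3 and MCM7 overlapped neither each other nor those of the other 4 subunits. CDC45, which joins the ring to activate it, was at 29.3 and 16.8 RPM, 1.74-fold lower (1.56 to 1.94).

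GINS, the 4-subunit partner of Cdc45 in the active helicase, lay near the median gene, with a median 0.08 below it and 0 past 2-fold. Of its 4 members 2 lay on each side, but PSF2 was only 0.001 above the median gene, so its side is not settled. PSF1 had 30.7 RPM in wild type against 23.4 in the deletion, 1.31-fold lower (1.19 to 1.44), and SLD5 at 13.7 and 10.4 RPM was 1.32-fold lower (1.14 to 1.53). PSF2 was at 32.2 and 27.8 RPM, 1.16-fold lower (1.06 to 1.27). PSF3 was at 13.2 and 12.0 RPM, with a ratio of 0.907 (0.788 to 1.04). The 4 intervals overlapped, and differences between the subunits were not tested. CDC45 lay lower than all of GINS, its fold interval meeting none of theirs.

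Of polymerase alpha-primase, which makes the short primers, 2 genes were much lower and 1 hardly differed. POL1, the catalytic subunit, had 316 RPM in wild type against 172 in the deletion, 1.84-fold lower (1.78 to 1.90). PRI2, the large primase subunit, was at 135 and 71.2 RPM, 1.90-fold lower (1.80 to 2.00). These intervals overlapped. PRI1, the catalytic primase subunit, was at 92.0 and 68.9 RPM, 1.33-fold lower (1.26 to 1.41). POL12, the regulatory B subunit, was at 182 and 175 RPM, 1.04-fold lower (1.003 to 1.08), and lay above the median gene. The group's median was 0.44 below the median gene, with 3 of 4 below it and 0 past 2-fold. The catalytic subunits of the replicative polymerases lay in between. POL2, of the leading-strand polymerase epsilon, was at 452 and 288 RPM, 1.57-fold lower (1.53 to 1.61), and POL3, of polymerase delta, at 118 and 85.8 RPM, 1.37-fold lower (1.30 to 1.44).

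RPA, the heterotrimer that coats single-stranded DNA in replication and in recombination, had nearly the same ratio in all its members. RFA1, the largest subunit and the gene with the most footprints of the 39, had 834 RPM in wild type against 663 in the deletion, 1.26-fold lower (1.24 to 1.28). RFA2 was at 360 and 281 RPM, 1.28-fold lower (1.25 to 1.32), and RFA3 at 149 and 115 RPM, 1.30-fold lower (1.25 to 1.36). All 3 intervals overlapped, and the log2 ratios spanned 0.05, against 0.22 to 0.86 in the 6 other complexes. Those complexes have 2 to 6 subunits and unequal depth, and the ORC span includes ORC2, below the 10 RPM filter. Whether the spans differ beyond counting error was not tested. All 3 lay below the median gene, by 0.15 at the median.

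The clamp and the 5 subunits of its loader RFC were lower, each below the median gene and 0 of 6 past 2-fold. POL30, which encodes the sliding clamp PCNA, had 130 RPM in wild type against 78.0 in the deletion, 1.66-fold lower (1.58 to 1.75). Of the 5 RFC subunits, which open the clamp and close it around DNA, RFC2 was lowest at 65.6 and 42.7 RPM, 1.54-fold lower (1.43 to 1.65). RFC5 was at 43.7 and 29.2 RPM, 1.498-fold lower (1.38 to 1.63), and RFC1, the largest subunit and the one used only in the replication loader, at 116 and 79.3 RPM, 1.46-fold lower (1.39 to 1.54). The intervals of these 3 overlapped. RFC3 was at 70.4 and 51.7 RPM, 1.36-fold lower (1.28 to 1.45). RFC4 was at 67.3 and 57.3 RPM and stood nearest to 1, 1.17-fold lower (1.10 to 1.25).

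The enzymes that process and join Okazaki fragments had the 2 lowest ratios of the 39 genes. RAD27, the flap endonuclease that removes primer ends, had 21.9 RPM in wild type against 8.65 in the deletion (886 and 241 reads), 2.53-fold lower (2.19 to 2.93). CDC9, the DNA ligase that seals the nicks, was at 71.6 and 30.7 RPM (2895 and 856 reads), 2.33-fold lower (2.16 to 2.52). The intervals overlapped, and both genes lay about 1 below the median gene on the log2 scale, RAD27 by 1.04 and CDC9 by 0.99. They stood at percentiles 4.77 and 5.32 of the log2 ratios of all measured genes. Which of them stayed at least 2-fold lower depended on the setting. Centred on the median gene, RAD27 was at -1.04 and CDC9 at -0.99, whereas with a pseudocount of 5 RPM RAD27 was at -0.98 and CDC9 at -1.10. With the trend on level or on length removed neither gene passed 2-fold, with RAD27 at -0.97 and -0.99 and CDC9 at -0.94 and -0.98.

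CDC21, the thymidylate synthase that supplies dTTP, was the other gene past 2-fold. It had 98.7 RPM in wild type against 48.1 in the deletion, 2.05-fold lower (1.93 to 2.19). Its interval holds 2, as does that of MCM7, which just missed the rule. TOP2, the topoisomerase that untangles replicated chromosomes, was at 459 and 273 RPM, 1.68-fold lower (1.64 to 1.73).

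CDC7 and DBF4 stood at the other end. The kinase they form triggers origin firing and in meiosis also acts in double-strand break formation and in the orientation of chromosomes at the first division. CDC7 had 189 RPM in wild type against 218 in the deletion, 1.16-fold higher (1.12 to 1.20), the highest ratio of the 39. DBF4 was at 290 and 287 RPM, with a ratio of 0.990 (0.962 to 1.02). Both lay above the median gene, by 0.41 and 0.19 on the log2 scale. CDC7, at percentile 76.1, was the only measured replication gene among the upper 25% of all measured genes, while 15 of the 37 lay in the lower 25%.

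**Figure D2:**
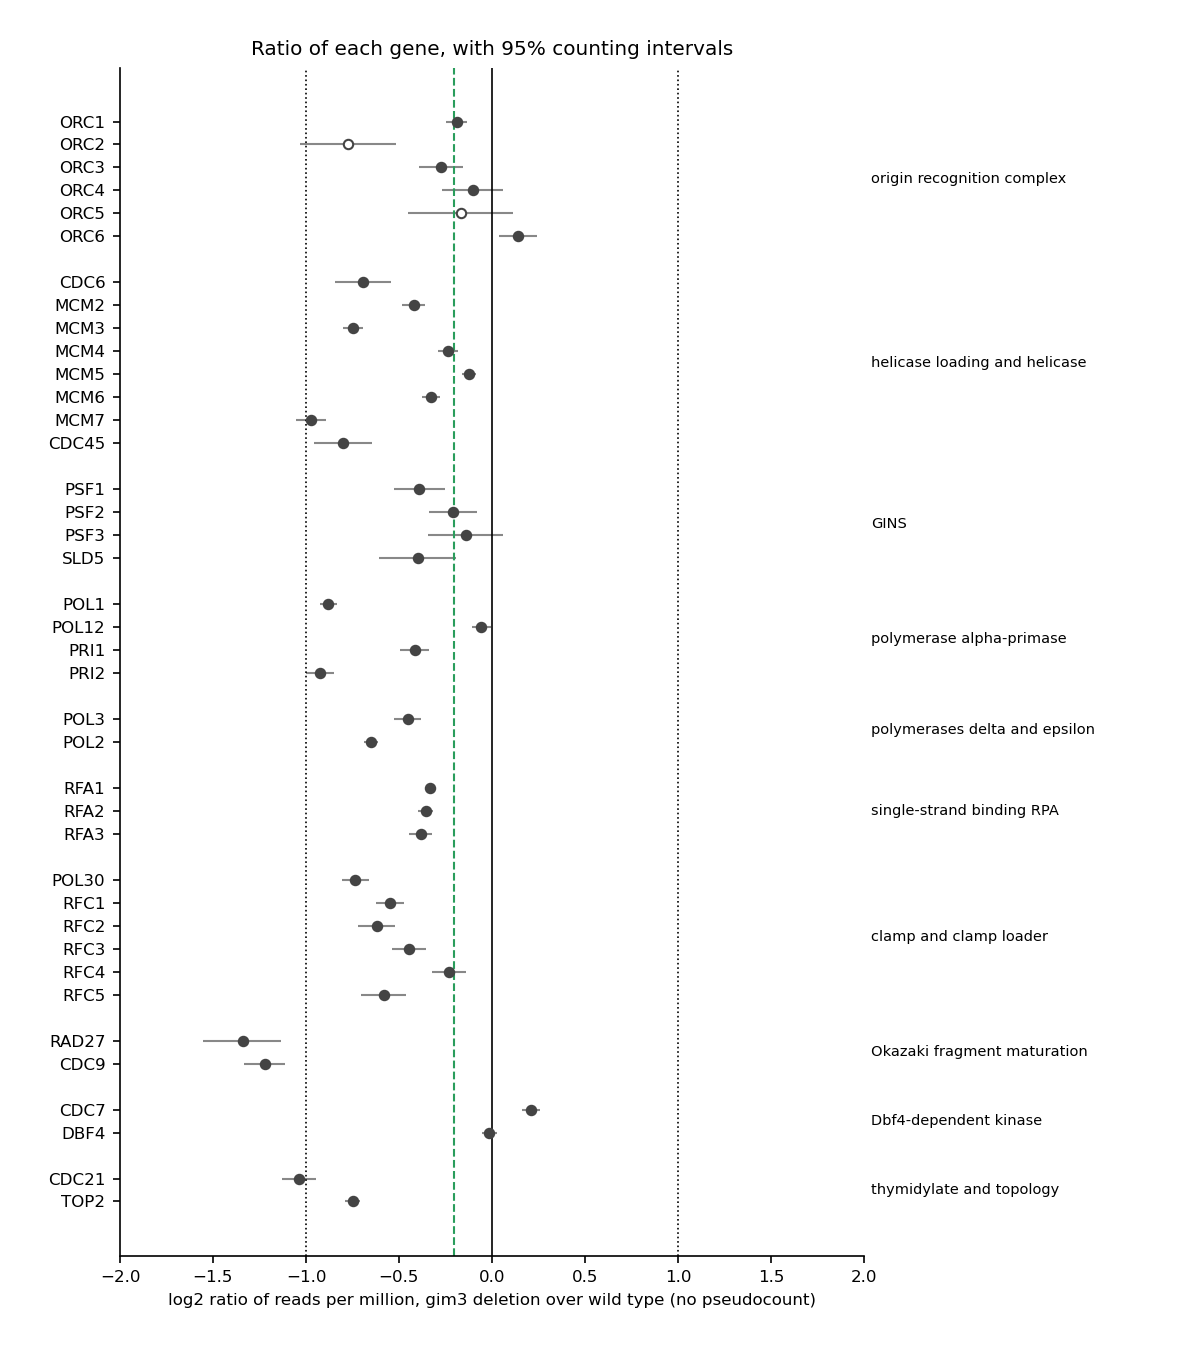
Log2 ratio of RPM, gim3 deletion over wild type without a pseudocount, for the 39 genes grouped by role. Bars are exact 95% counting intervals, open circles mark ORC2 and ORC5 (below 10 RPM), and dotted lines mark 2-fold. The dashed line is the median gene at -0.20, computed with the pseudocount of 1 RPM. A gene close to that line, such as PSF2, can therefore fall on the other side of it here than in the text. RAD27, CDC9 and CDC21 lie beyond the left dotted line, the 3 RPA points nearly coincide, and POL12 stands apart from POL1 and PRI2.

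Levels of different genes were compared per length, as RPM per kilobase (kb), with gene lengths from the R64 RefSeq table. RPA stood far above the rest in both libraries, with RFA1 at 447 RPM per kb in the wild-type library, RFA3 at 405 and RFA2 at 387. POL30 came next at 167, then MCM5 at 145, DBF4 at 137, CDC7 at 124, CDC21 at 108 and TOP2 at 107. At the bottom were ORC5 at 4.76, ORC2 at 5.76, ORC4 at 12.3, CDC45 at 14.99, SLD5 at 15.5, RAD27 at 19.1 and CDC6 at 19.6. The per-length level thus spanned 94.0-fold in the wild-type library and 105-fold in the gim3 deletion library, while no ratio between libraries passed 2.53-fold. The median of the 37 measured replication genes was 67.7 RPM per kb against 53.0 for the median measured gene in the wild-type library, and 44.8 against 47.0 in the gim3 deletion library. In the gim3 deletion library RPA again led, with RFA1 at 355, RFA3 at 310 and RFA2 at 302, followed by CDC7 at 143, DBF4 at 136, MCM5 at 133 and POL30 at 100.4 RPM per kb. POL30 thus went from the 4th to the 7th place. Across the 39 genes, which share both libraries, the per-length levels had a Spearman correlation of 0.95 between libraries.

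Within complexes whose subunits are present in equal numbers, the evenness of the per-length levels differed from complex to complex. RPA was even, with 1.15-fold between RFA1 and RFA2 in the wild-type library (1.13 to 1.18) and 1.17-fold in the gim3 deletion library (1.14 to 1.21). RFA2 contains an intron, which the length used here includes, so its value is too low. CDC7 and DBF4 were also close, at 1.11-fold (1.08 to 1.14) with DBF4 the higher in the wild-type library and at 1.05-fold (1.02 to 1.09) with CDC7 the higher in the gim3 deletion library. Polymerase alpha-primase was even only in the wild-type library. There POL1, PRI1, PRI2 and POL12 were at 71.8, 74.8, 85.1 and 85.9 RPM per kb, 1.20-fold from lowest to highest (1.16 to 1.23). In the gim3 deletion library they were at 39.0, 56.0, 44.8 and 82.6, a 2.12-fold spread (2.03 to 2.20).

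The helicase ring and the clamp loader were also less even in the gim3 deletion library. For MCM2 to MCM7 the spread was 3.05-fold in the wild-type library (2.95 to 3.15), from MCM7 at 47.5 to MCM5 at 144.8 RPM per kb, and 5.49-fold in the gim3 deletion library (5.22 to 5.79), from 24.2 to 133.0. Without MCM5 the other 5 subunits spanned 1.73-fold and 2.68-fold. RFC spanned 1.69-fold (1.59 to 1.79) and 2.15-fold (1.98 to 2.35), with RFC5 lowest and RFC4 highest in both libraries. GINS and ORC were uneven in both libraries. GINS spanned 3.23-fold (2.92 to 3.58) and 3.68-fold (3.21 to 4.23), SLD5 and PSF3 lying below PSF1 and PSF2. ORC spanned 12.6-fold (11.2 to 14.3) in the wild-type library, from ORC5 to ORC1 at 59.9 RPM per kb, and 15.6-fold (13.4 to 18.2) in the gim3 deletion library, from ORC2 to ORC1. These intervals cover the reads of the lowest and highest subunit only, and with 1 library per genotype the change in evenness could not be tested.

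**Figure D3:**
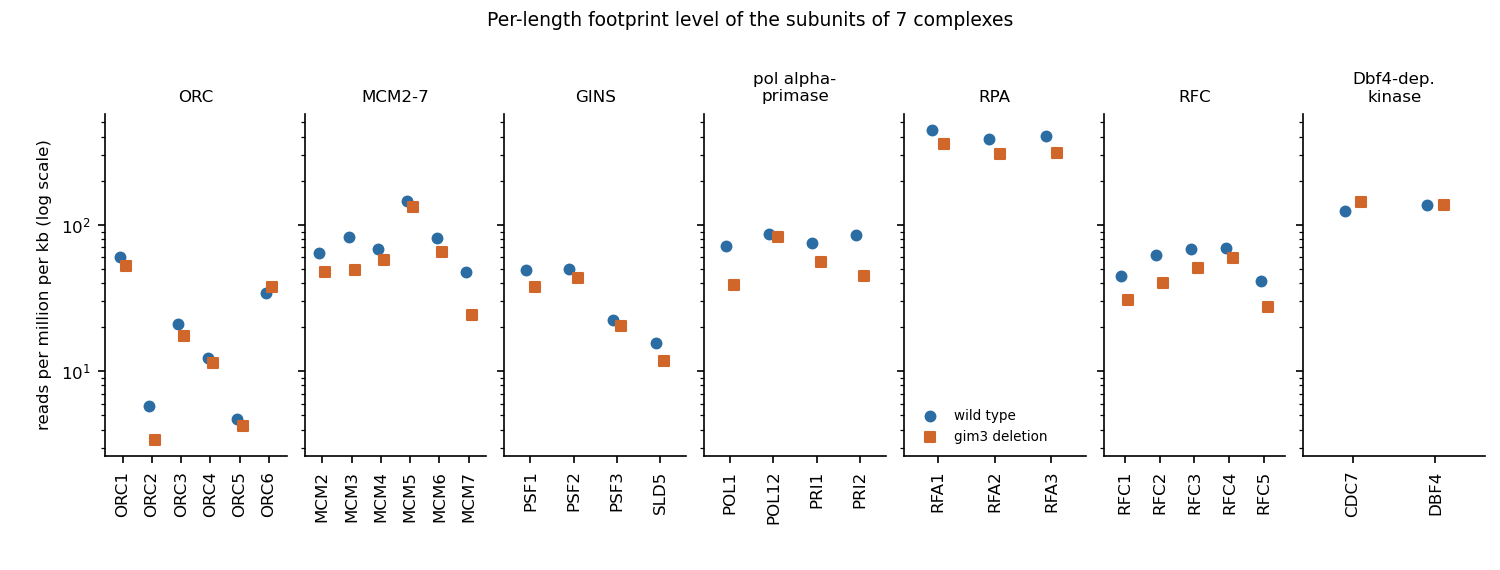
Per-length footprint level (RPM per kb, log axis) of each subunit of 7 complexes in the wild-type library (circles) and the gim3 deletion library (squares). The 3 RPA subunits lie level with each other, the 4 polymerase alpha-primase subunits lie level only in the wild-type library, and ORC2 and ORC5 lie far below ORC1.

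The pairs POL2 with ORC5 and POL30 with RFC5 are neighbours on their chromosomes, and none of the 39 overlaps another gene of the R64 RefSeq table. POL2 and ORC5 lie next to each other yet differed 14.2-fold per length in the wild-type library and 10.2-fold in the gim3 deletion library. POL30 and RFC5, the clamp and a clamp loader subunit, lie side by side too, and POL30 was 4.07-fold and 3.67-fold higher per length. Between libraries, POL30 was 1.66-fold and RFC5 1.498-fold lower, while POL2 was 1.57-fold lower and ORC5, below the 10 RPM minimum, had a ratio of 0.891.

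Other genes of replication were examined as 3 lists, of which 52 of 53 members were measured. By 2-fold or more, 3 were higher (5.77%, against 6.35% of all genes) and 7 lower (13.5%, against 8.50%), with a median of -0.57, 0.37 below the median gene. Nucleotide supply genes lay lowest. Their median was -0.75, and 3 of 11 were lower by 2-fold or more (27.3%, against 8.50% of all genes) and 0 higher (against 6.35%). RNR1, the large subunit of ribonucleotide reductase, had 970.3 RPM in wild type against 379 in the deletion, 2.56-fold lower. DUT1, the dUTPase, was at 61.3 and 26.1 RPM, 2.34-fold lower, and URA7, a CTP synthase, at 25.3 and 11.5 RPM, 2.20-fold lower. The highest were the kinases YNK1, with a ratio of 1.20, and GUK1, with 1.17. RNR1 and RNR3 are similar in sequence, so how their reads were divided is uncertain.

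Accessory and fork genes were divided. Of 24 measured, 3 were at least 2-fold lower (12.5%, against 8.50% of all genes) and 1 at least 2-fold higher (4.17%, against 6.35%). Below the median gene lay 16 of the 24, with a list median of -0.65 and a mean of -0.40. MRC1, a fork protein of the replication checkpoint, was lowest with 70.2 RPM in wild type against 24.8 in the deletion, 2.83-fold lower. CTF4, which ties polymerase alpha to the helicase, was 2.11-fold lower, and ASF1, a histone chaperone, 2.09-fold lower. MSI1, a subunit of chromatin assembly factor 1, was highest at 90.7 and 239 RPM, 2.63-fold higher, whereas CAC2 and RLF2 of the same complex were 1.60-fold and 1.91-fold lower. DNA2, a nuclease and helicase that also acts on Okazaki flaps, had a ratio of 1.45, in contrast with 0.395 for RAD27.

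Initiation factors and S-phase regulators held the highest ratio of the 3 lists. Of 17 measured, 2 were higher (11.8%, against 6.35% of all genes) and 1 was lower (5.88%, against 8.50%) by 2-fold or more. The list had a median of -0.42 and a mean of -0.11. CLB6, an S-phase cyclin, was highest with 17.2 RPM in wild type against 57.6 in the deletion, 3.35-fold higher (3.07 to 3.67). RIF1, which holds back late origins, was at 200.1 and 441 RPM, 2.20-fold higher. CLB5, the other S-phase cyclin, was at 144 and 277 RPM, 1.92-fold higher. The lowest were STB1, a regulator of the G1 factors that turn on many replication genes, at 46.9 and 20.7 RPM, 2.26-fold lower, and SLD2, an initiation factor, at 24.1 and 12.3 RPM, 1.95-fold lower. Of the 17 genes, 10 lay below the median gene, as did 28 of the 37 measured members of the machinery. CLB6, RIF1 and CLB5 were among the genes of the list above it.

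**Figure D4:**
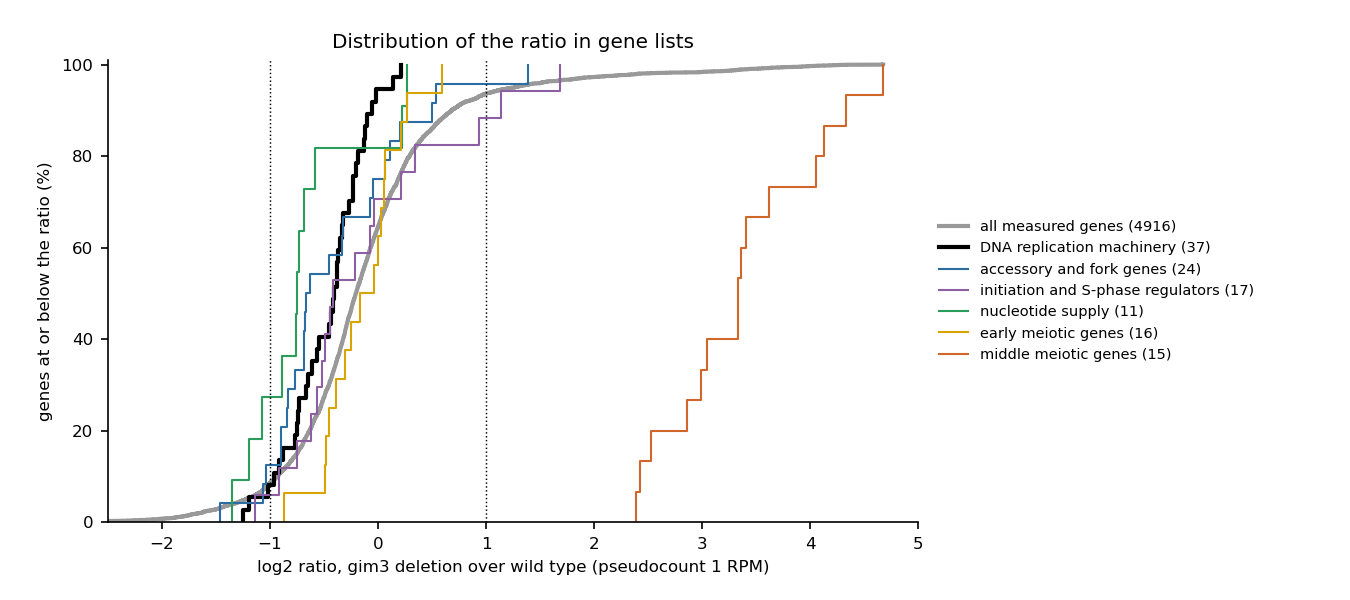
Cumulative share of genes (%) by log2 ratio (the deletion over wild type), with dotted lines at 2-fold. The replication genes (black) reach 100% just above 0, at 0.21, while all measured genes (grey) extend past 4. The middle meiotic genes start above 2.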

How the data were processed

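The authors deposited 1 table with 1 value per gene and library. Each column sums to 1000000, so the deposited values are RPM with no division by length. In both columns 100% of values were whole multiples (within 0.001 of a read) of the smallest one, 0.0247 RPM for wild type and 0.0359 RPM for gim3 deletion, so reads were recovered. The tools named per the submitters' processing notes are SAMtools, STAR and Bowtie2. For their roles and versions, the build, the annotation and reads matching several places, nothing is stated in the sources used here. The 86 rows without a gene name (0.121% and 0.124% of reads) were left out of comparisons.

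Log2 ratios used a pseudocount of 1 RPM. Folds are ratios of RPM without one, and their exact (Clopper-Pearson) intervals come from how a gene's reads divide between libraries, or 2 genes' reads within one. PCR copies of a molecule count as separate reads here. Genes at or above a mean of 10 RPM were compared by fixed folds of 2 and 1.5 on the log2 scale. No count model was fitted, since it takes replicates. In its place the recovered reads went into an exact binomial test (Benjamini-Hochberg, 0.05), which compares the libraries alone and separated 4333 of 4916 genes. Lengths, symbols and neighbours came from the R64 RefSeq table, which matched 5910 of 6592 names and all 39 members. Those lengths are of another strain and include introns. The interval and the 2-fold rule were run on simulated reads that held counting error only, as the interval assumes. That run cannot speak to variation between cultures or to PCR copies. The members, lists and role groups were chosen with earlier results of these data known. All members are named. Of the other replication lists, the 2 highest, the 2 lowest and all genes past 2-fold are named, and CAC2, RLF2 and CLB5 were added after their values were seen. Promoter motifs were not analysed here. The software was SciPy 1.17.1, statsmodels 0.14.6, pandas 2.3.3, numpy 2.4.6 and matplotlib 3.10.9 under Python 3.11.15.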

Additional observations from a re-analysis of the deposited data

How the results depend on the processing

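No paired analysis was possible because there is 1 library per genotype. The median of the replication genes stayed below 0 under all alternatives run, at -0.21 when centred on the median gene, -0.21 with trimmed mean scaling, -0.24 without the trend on level and -0.18 without the trend on length. Centring and the trimmed mean shift all genes up by construction, and removing a trend shifts each gene by its own amount. The count of members at least 2-fold lower, 3, was 1 when centred, with trimmed mean scaling or with a pseudocount of 5 RPM, 0 without either trend, 13 at 1.5-fold, and 32 (with 2 higher) in the exact binomial test added after seeing the data. The count of all genes at least 2-fold lower, 418, was 256 when centred, 261 with the trimmed mean, 250 and 249 without the trends on level and length, 253 with a filter at 50 RPM and 1110 at 1.5-fold, where 588 were higher. The binomial test separated 2855 lower and 1478 higher. In all, 9 members changed sign under at least 1 of these scalings or trends, and none was past 2-fold.

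The median gene was taken anew over the genes that pass each filter, so a filter moves the reference as well as the genes counted. Relative to it, the ORC median of 0.06 turned to -0.075 with no filter, which adds ORC2 and ORC5. With a filter at 50 RPM, which leaves only ORC1, it was -0.030. GINS, with the same 4 genes, went from -0.08 to -0.19 with no filter, through the moved median gene alone. The other groups with a value kept their side. GINS has none at 50 RPM, since all 4 of its genes lie below that. With no filter, the helicase group was at -0.45, polymerase alpha-primase at -0.55, polymerases delta and epsilon at -0.46, RPA at -0.26, the clamp and loader at -0.46, CDC7 and DBF4 at 0.19, and CDC21 and TOP2 at -0.79. With a filter at 50 RPM, the helicase group was at -0.22, RPA at -0.20 and CDC7 and DBF4 at 0.26. Without the trend on level, polymerases delta and epsilon were at -0.40, RPA at -0.24 and CDC7 and DBF4 at 0.23. Without the trend on length, polymerase alpha-primase was at -0.37, polymerases delta and epsilon at -0.24, and CDC21 and TOP2 at -0.60. RAD27 and CDC9 were at -0.85 with a pseudocount of 5 RPM, and the mean put polymerase alpha-primase at -0.36. The gain in spread in the gim3 deletion library, as a difference of SDs of log2 levels, was 0.26 for MCM2 to MCM7, 0.34 for polymerase alpha-primase and 0.11 for RFC. That of RPA, in log2 of highest over lowest, went from 0.02 to -0.027 when the end codons were left out of the length. Depth limits ORC2, ORC5, RAD27, SLD5 and PSF3 most, which have the fewest reads in the gim3 deletion library.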

Other observations

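Neither gene length nor level went closely with the ratio. Across the 37 measured replication genes, which come from the same pair of libraries, the Spearman correlation of the log2 ratio with gene length was -0.14 and with mean RPM 0.10. Across the 4884 measured genes with a length these were -0.07 and 0.13. The log2 levels of the 37 genes had a Pearson correlation of 0.97 between libraries, against 0.89 for the 4884 genes.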
